A study of Mus musculus with 78 samples.

Results

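Syntaxins and the other SNARE proteins fuse vesicles with their target membranes, and in neurons they release transmitters and peptides. A vesicle SNARE of the VAMP family zips together with a syntaxin and a SNAP-25 type protein of the target membrane, while Munc18-type proteins bind the syntaxin, active zone proteins such as Rims1, Unc13a, Bsn and Pclo dock and prime the vesicle, complexins hold the assembled complex, and Nsf with its adaptors Napa and Napb takes it apart afterwards. Synapsins tether the vesicle pool, and Sv2a, Sv2b, Syp and the synaptogyrins sit in the vesicle membrane. The data describe 43 such genes, a list chosen with earlier results of these data known. The value table carried 86 probes for 41 of them out of 46643 probes for 19406 named genes, and for Sv2c and Stxbp5 no probe was listed.

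The genes were measured in male CD-1 mice of 3 lines from a selective breeding for anxiety-related behavior, the high (HAB), the normal (NAB) and the low (LAB) line, in generation 25 at an age of 10 weeks. RNA of each mouse and region was hybridized to a MouseWG-6 v1.1 bead array, after laser microdissection of the dentate gyrus (DG), the hypothalamic paraventricular nucleus (PVN), the basolateral (BLA) and central (CeA) nuclei of the amygdala and the cingulate cortex (Cg). Listed as HAB, NAB and LAB, the Cg had 5, 6 and 6 arrays with values, the CeA 6, 6 and 5, the PVN 6, 5 and 5, the BLA 5, 6 and 5, and the DG 3, 3 and 3. The lines differ by selective breeding, so a difference between them cannot be tied to a single gene or allele, and bulk tissue cannot separate fewer cells of a type from less RNA per cell. Levels are normalized intensities on a linear scale, and differences are on the log2 scale with their standard error (SE). A probe reads the transcript stretch it binds, so its value stands for that probe, and levels are compared between samples of a probe and never between probes.

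Array medians ran from 5.49 to 6.19. Arrays of a group correlated at 0.945 or more, and the highest correlation of any 2 arrays was 0.981. An array's background was set from 1305 probes for olfactory and pheromone receptor genes and ran from 6.99 to 10.6. The dissections carried markers of their regions: Oxt, a neurohypophysial hormone, reached 1590 ± 245 in the PVN (SD, n = 16) against means of 6.07 to 7.31 elsewhere, Prox1, a granule cell transcription factor, 151 ± 14.5 in the DG (n = 9), Prkcd, a kinase of central amygdala neurons, 100 ± 26.0 in the CeA (n = 17), Tbr1, a cortical transcription factor, 85.0 ± 8.27 in the Cg (n = 17, but 63.7 ± 11.1 in the DG and 59.0 ± 8.79 in the BLA), and Slc17a7, a vesicular glutamate transporter, 481 ± 50.0 in the BLA (n = 16, but 302 ± 40.5 in the DG and 265 ± 25.5 in the Cg). The other cortical marker, Cux2, was higher in the BLA (44.4 ± 11.0) than in the Cg (37.9 ± 5.61). All arrays of a region were hybridized as a batch, so region and batch cannot be told apart, whereas the lines were compared inside a region. Of the marker lists, none of the 6 neuronal markers above background differed between HAB and LAB (limma, adjusted p under 0.05, averaged over regions), while all 3 erythroid markers and 2 of 5 oligodendrocyte markers were higher in HAB, and 3 of 4 endothelial markers and 1 of 5 microglial markers were lower. In NAB against LAB, 3 of 6 astrocyte, 4 of 5 microglial and 2 of 4 endothelial markers and 1 of 3 GABAergic markers were lower, and none of the neuronal markers was called. In HAB against NAB, 2 of 3 erythroid, 2 of 5 microglial, 1 of 4 endothelial, 1 of 5 oligodendrocyte and 1 of 3 GABAergic markers were higher and 1 microglial marker was lower, again with no neuronal marker called. The summed intensity of the endothelial list ran from 170 to 338 over the HAB arrays, from 160 to 333 over the NAB arrays and from 267 to 505 over the LAB arrays, that of the erythroid list from 512 to 1810, 467 to 1410 and 386 to 1340, and that of the neuronal list from 1100 to 1630, 959 to 1600 and 1170 to 1660. For microglia the sums ran from 122 to 203 in HAB, 91.9 to 232 in NAB and 151 to 222 in LAB, for astrocytes from 1010 to 1980, 880 to 1950 and 1020 to 2040, and for oligodendrocytes from 512 to 1770, 479 to 1030 and 417 to 1200. The part of these cell types in the differences below was not tested.

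Of the 86 probes, 64 probes of 39 genes lay above background often enough to be tested in at least 1 region, and 52 of these in all 5 regions. The 22 others lay at background. Among them were all probes of Bsn, a scaffold of the active zone, and of Stx16, a syntaxin of the trans-Golgi network. Vamp7, a VAMP of late endosomes, and Unc13a, which primes vesicles, passed in the DG alone, each in 4 of 9 arrays, with DG means of 8.08 ± 1.81 and 7.33 ± 1.75. In the other regions neither of these probes was above background in any array.

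Stx3, a plasma membrane syntaxin best known from ribbon synapses and from the apical membrane of epithelia, carried the member probe with the largest difference between lines. This probe was bright in HAB mice of every region and at background in every NAB and LAB mouse, while a second probe, for another Stx3 transcript, overlapped between the lines. The part of the transcript that the bright probe binds was not placed here, and whether the lines differ in sequence under it was not tested here. A brighter signal of this probe can therefore not be read as more Stx3 RNA. Promoter windows were at hand for 36 of the 43 genes. That of Stx3 is printed here because its bright probe was the only member probe whose HAB and LAB arrays overlapped in no region. The window is from the reference genome and was not compared between the lines (RefSeq, GRCm38.p6, minus strand, the 250 bases before a transcript start that lies inside the annotated span of the gene). Capitals mark the single match to TATAAA on either strand, a motif found in 12.4% of 32851 mouse promoter windows of this length. GGGCGG (in 32.7% of windows) and TGACGTCA (in 1.55%) had no match in it.
Stx3, chr19:11819404-11819653: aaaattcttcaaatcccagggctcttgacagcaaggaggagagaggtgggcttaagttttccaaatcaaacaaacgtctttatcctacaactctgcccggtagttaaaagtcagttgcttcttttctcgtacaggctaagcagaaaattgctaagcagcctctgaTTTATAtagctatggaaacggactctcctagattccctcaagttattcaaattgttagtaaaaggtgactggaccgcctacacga

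For probe 102480441 of Stx3, the HAB arrays read 26.6, 32.8, 36.4, 36.9 and 37.6 in the Cg and 27.0, 27.6, 28.2, 31.4 and 31.9 in the BLA. In the DG they read 50.2, 54.8 and 55.6. The 6 HAB arrays ran from 26.3 over a median of 30.6 to 33.1 in the CeA, and from 34.7 over 43.3 to 53.9 in the PVN. All of these lay above the background of their array. The LAB arrays stayed between 3.25 and 6.06 and the NAB arrays between 2.77 and 6.39, none above background, so that the lines did not overlap in any region. Averaged over regions, HAB exceeded LAB by 3.07 (SE 0.07, limma adjusted p 1.08e-46) and NAB by 3.13 (SE 0.07, adjusted p 6.71e-48) in measured log2 intensity, whereas NAB and LAB differed by -0.06 (adjusted p 0.643). With the background level standing in for the dim lines, the HAB signal of this probe was at least 4.41-fold above LAB and at least 4.35-fold above NAB. The log2 differences moved between 3.03 and 3.10, and between 3.09 and 3.16, when each mouse in turn was left out.

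The size of this Stx3 difference depended on the region. HAB exceeded LAB by 3.60 (SE 0.15, adjusted p 7.62e-05) in the DG and by 3.51 (SE 0.13, adjusted p 2.05e-11) in the PVN. The difference was 2.82 (SE 0.13, adjusted p 5.16e-11) in the Cg, 2.75 (SE 0.16, adjusted p 4.88e-09) in the BLA and 2.68 (SE 0.13, adjusted p 5.80e-10) in the CeA. HAB was thus brightest in the DG and PVN. Against the background level, HAB was above LAB by at least 6.93-fold in the DG, 5.41-fold in the PVN, 3.94-fold in the Cg, 3.45-fold in the CeA and 3.27-fold in the BLA. In the joint model the interaction of line and region gave a moderated F of 9.27 (adjusted p 0.00442). It was the only one of 64 member probes past the threshold, where 0.258% of all 22083 probes tested passed. Without HAB mouse 01 it gave an F of 7.03 (adjusted p 0.0535). LAB and NAB lay at background throughout, so the interaction rests on the HAB level and on values under background.

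Probe 2640215 of Stx3, which matches another reference transcript of the gene, gave a different picture. Its HAB, NAB and LAB means were 13.1 ± 0.963, 12.9 ± 1.46 and 11.8 ± 1.80 in the Cg and 17.3 ± 1.44, 18.7 ± 1.41 and 20.1 ± 2.67 in the PVN. The 3 lines overlapped in all 5 regions, and HAB and LAB differed by -0.04 (SE 0.05, adjusted p 0.795) on average. The third probe, 1190563, is annotated to the same reference transcript as the bright one, yet it was above background in 1 of 75 arrays (a LAB DG array of 7.41). The 3 probes therefore disagree about Stx3, and a statement on its level holds for a probe and not for the gene.

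**Figure D1:**
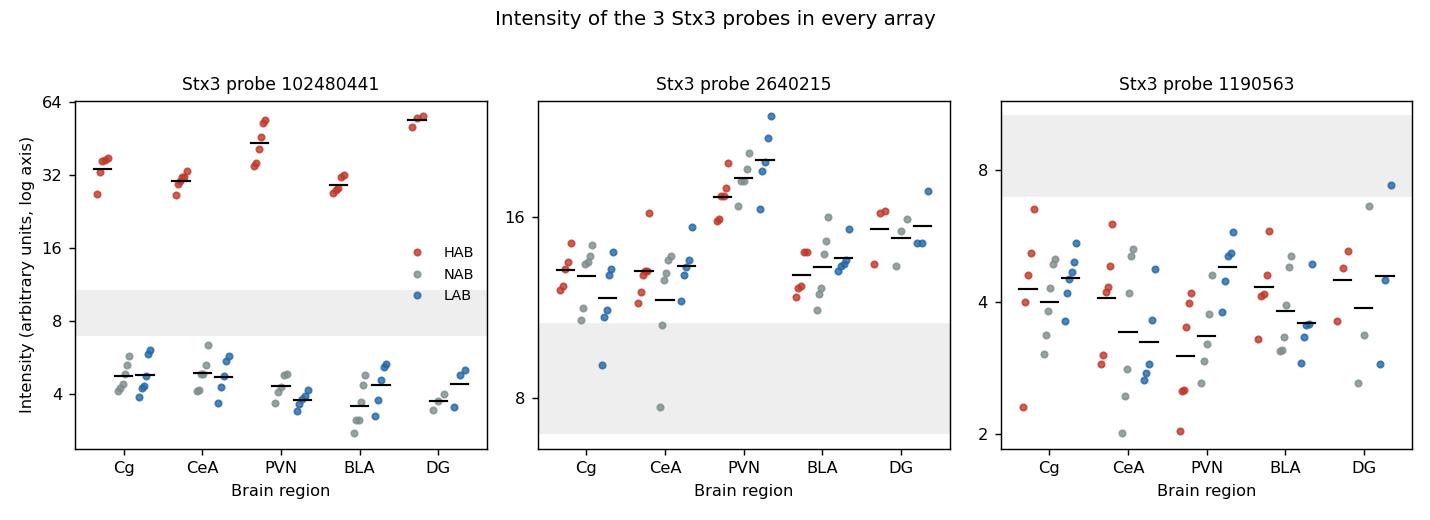
Normalized intensity (log axis) of the 3 Stx3 probes in each array, by region and line, with black bars at the mean of the log2 values and a grey band over the range of array backgrounds (6.99 to 10.6). Probe 102480441 shows the HAB arrays at 26.3 to 55.6 and the other lines within or under the band, while the lines overlap for the other probes.

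Apart from Stx3, few members differed between HAB and LAB, and those that did were lower in HAB. Averaged over regions, 5 of 64 member probes passed the threshold (7.81%, 1 higher and 4 lower in HAB), beside 7.17% of all probes tested. The median difference of the members was -0.05 and that of all probes -0.04. The 4 lower probes belonged to Sv2a, Napa, Vamp1 and Snap91. The Snap91 probe passed the filter in the DG alone, and there through NAB and LAB arrays, with no HAB array above background. Its averaged difference therefore rests mostly on values under background. The member share thus lay near the share of all probes, and the differences that missed the threshold ran from -0.30 (Snap91, probe 3170056, adjusted p 0.447) to 0.23 (Vamp7, adjusted p 0.294).

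**Figure D2:**
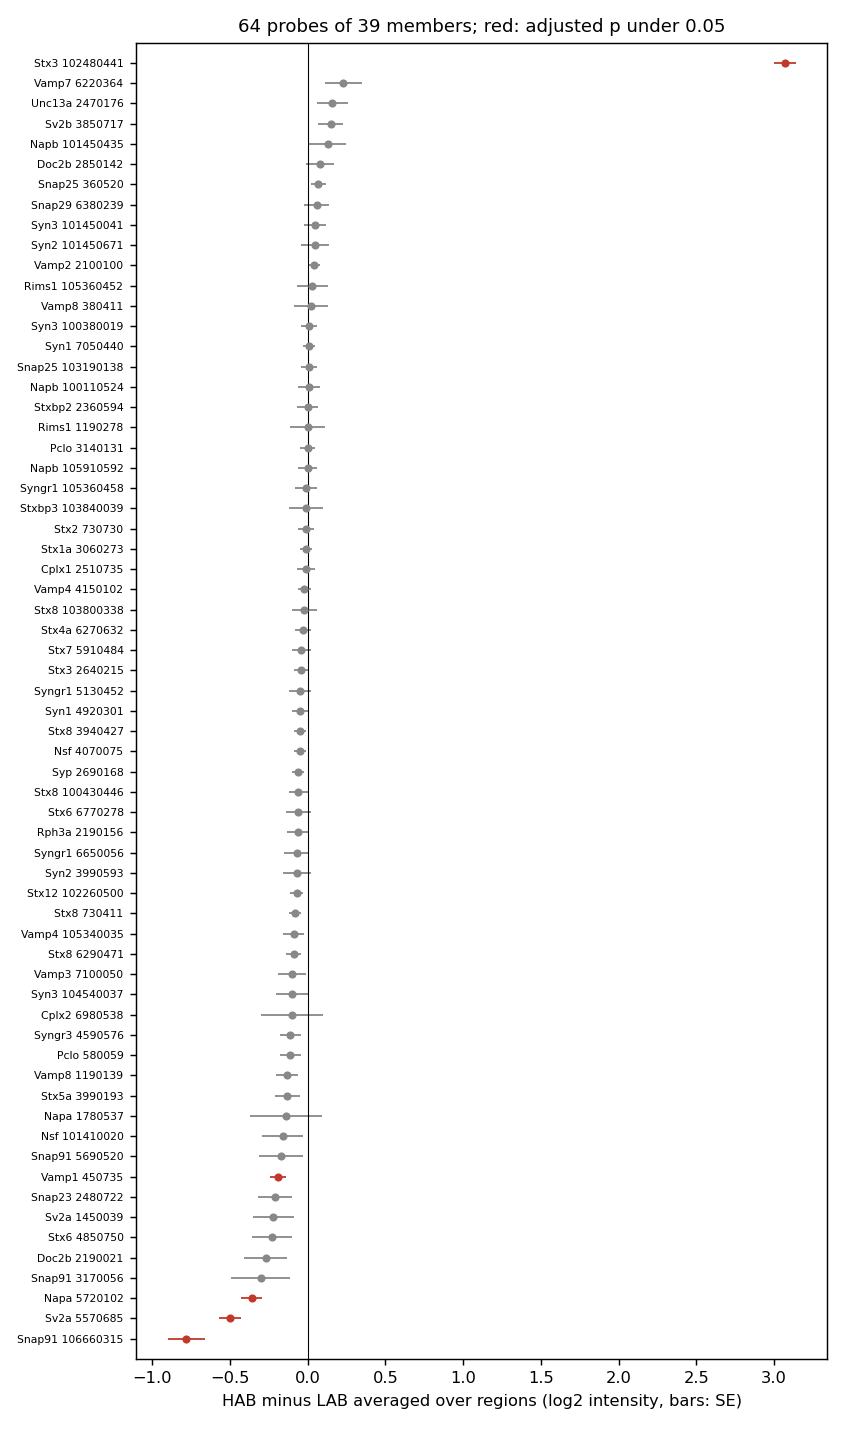
Difference HAB minus LAB averaged over the 5 regions (log2 intensity) for the 64 tested probes of 39 members, with bars of 1 SE and red for an adjusted p under 0.05. Stx3 probe 102480441 stands at 3.07, and 4 probes on the low side, from -0.19 for Vamp1 to -0.78 for Snap91, are red. The Snap91 value rests mostly on arrays under background.

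Sv2a, a glycoprotein of the synaptic vesicle and the binding site of the drug levetiracetam, was higher in LAB than in both other lines. The mean intensity of probe 5570685 in HAB, NAB and LAB was 259 ± 15.5, 256 ± 28.7 and 345 ± 72.6 for the Cg, with 214 ± 23.0, 223 ± 28.5 and 347 ± 73.7 for the CeA. In the PVN it was 314 ± 57.5, 275 ± 41.2 and 444 ± 70.5. In the BLA it was 280 ± 27.2, 315 ± 47.6 and 417 ± 71.3, and in the DG 220 ± 14.6, 241 ± 30.2 and 291 ± 70.3. LAB had the highest mean in each region, yet its lowest array always lay within the range of the HAB arrays or the NAB arrays. In the CeA the LAB arrays read 222, 350, 362, 389 and 411 while the HAB arrays ended at 252, and in the BLA they read 294, 427, 436, 458 and 473 while the HAB arrays ended at 320. In the PVN the lowest LAB array (345) exceeded the highest NAB array (320) but not the highest HAB array (407).

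Averaged over regions, HAB was 0.50 below LAB for this Sv2a probe (SE 0.07, adjusted p 3.17e-08), NAB was lower than LAB by the same measure (-0.47, SE 0.07, adjusted p 1.40e-07), and HAB and NAB differed by -0.03 (adjusted p 0.886). Inside single regions HAB and LAB differed in the CeA (-0.67, adjusted p 0.0101) and the BLA (-0.56, adjusted p 0.0269), and NAB and LAB in the CeA (-0.62, adjusted p 0.021) and the PVN (-0.69, adjusted p 0.0232). The calls averaged over regions and that of HAB against LAB in the CeA held without any single mouse. The call in the BLA was lost without any of HAB 01, 05, 09 and 17 or LAB 03, 07, 10 and 14 (-0.58 to -0.51), that of NAB against LAB in the CeA without LAB 03, 14 or 21 (-0.59 to -0.55) and after quantile normalization (-0.49, adjusted p 0.0872), and that in the PVN without LAB 07, 10 or 14 or NAB 12 or 18 (-0.68 to -0.59). Without the filter on dim probes the calls of HAB against LAB in the BLA (adjusted p 0.0988) and of NAB against LAB in the CeA (adjusted p 0.0803) and PVN (adjusted p 0.0616) were lost as well. A second Sv2a probe, 1450039, was lower in NAB than in LAB (-0.39, SE 0.13, adjusted p 0.034) and gave -0.22 for HAB against LAB (adjusted p 0.405). That call was lost without any of LAB 03, 06, 07 and 14 or NAB 04, 08, 12 and 15 (-0.40 to -0.29), without the filter (adjusted p 0.0591) and with array weights (-0.32, adjusted p 0.0646). Both Sv2a probes match the same reference transcript.

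Napa encodes alpha-SNAP, the adaptor that recruits Nsf to a used SNARE complex. Its probe 5720102 read 81.2, 82.0 and 90.4 in the HAB DG, 92.0, 109 and 115 in the NAB DG and 100.0, 114 and 155 in the LAB DG, so HAB lay below both other lines there. With 3 arrays per line, HAB and LAB did not overlap in the DG for 14.8% of all probes and 11.7% of member probes. For HAB and NAB these shares were 12.1% and 10.0%. The Cg had HAB, NAB and LAB means of 31.0 ± 2.13, 33.4 ± 2.23 and 36.6 ± 2.59, the CeA 22.1 ± 2.44, 23.0 ± 2.64 and 28.4 ± 5.36, and the PVN 23.1 ± 6.59, 24.4 ± 3.74 and 29.9 ± 6.78. In the BLA the order was another, with 30.0 ± 5.84 in HAB, 40.4 ± 2.72 in NAB and 37.0 ± 5.30 in LAB. HAB had the lowest mean in every region, though its arrays overlapped those of LAB in the Cg, CeA, PVN and BLA. Averaged over regions the difference to LAB was -0.36 (SE 0.07, adjusted p 9.04e-05), that to NAB was -0.21 (adjusted p 0.0558), and no single region passed. The other Napa probe, 1780537, gave -0.14 (SE 0.23, adjusted p 0.822).

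Vamp1, or synaptobrevin 1, is a vesicle SNARE. Its probe 450735 averaged 47.2 ± 5.65, 45.9 ± 5.88 and 54.0 ± 6.27 in the Cg of HAB, NAB and LAB and 44.5 ± 7.20, 43.9 ± 3.43 and 53.3 ± 4.73 in the CeA. In the DG the HAB arrays (35.8, 39.3 and 39.4) and the NAB arrays (39.3, 39.8 and 44.9) stayed below the LAB arrays (46.4, 46.6 and 48.8). With 3 arrays per line, HAB and LAB did not overlap there for 14.8% of all probes, and NAB and LAB for 11.5%. In the BLA the lines were close, at 49.1 ± 2.25, 47.6 ± 3.49 and 49.6 ± 2.14. HAB was 0.19 below LAB (SE 0.05, adjusted p 0.0122) and NAB 0.18 below LAB (SE 0.05, adjusted p 0.0148) over the 5 regions. These were small differences, and both missed the threshold after quantile normalization (-0.14, adjusted p 0.289, and -0.12, adjusted p 0.225).

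Snap91, or AP180, is a clathrin coat adaptor that retrieves vesicle membrane after release and shares only its abbreviation with the SNAREs. Its probe 106660315, built on a cDNA clone, was dim and passed in the DG alone, with 11 of 75 arrays above background. The DG arrays read 5.24, 5.33 and 7.14 in HAB, none above background, 8.31, 8.38 and 11.1 in NAB and 9.18, 10.4 and 10.6 in LAB, all above. In the CeA 2 of 5 LAB arrays (13.6 and 14.3) were above background and no HAB or NAB array was. HAB was below LAB by -0.78 (SE 0.12, adjusted p 3.96e-07) and below NAB by -0.39 (SE 0.12, adjusted p 0.0218) in measured values averaged over regions, and NAB was below LAB by -0.39 (SE 0.12, adjusted p 0.0184). As HAB had no array above background, only a bound can be given, and in the DG LAB was at least 1.1-fold above HAB, where the fit of that region gave -0.78 (adjusted p 0.13). The call against NAB was lost without NAB 04, 12 or 15 or HAB 17 (-0.38 to -0.29) and with array weights (-0.37, adjusted p 0.0811), and that of NAB against LAB without NAB 02 or LAB 03 (-0.35 to -0.29). The other Snap91 probes, 3170056 and 5690520, gave -0.30 (adjusted p 0.447) and -0.17 (adjusted p 0.574) for HAB against LAB.

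**Figure D3:**
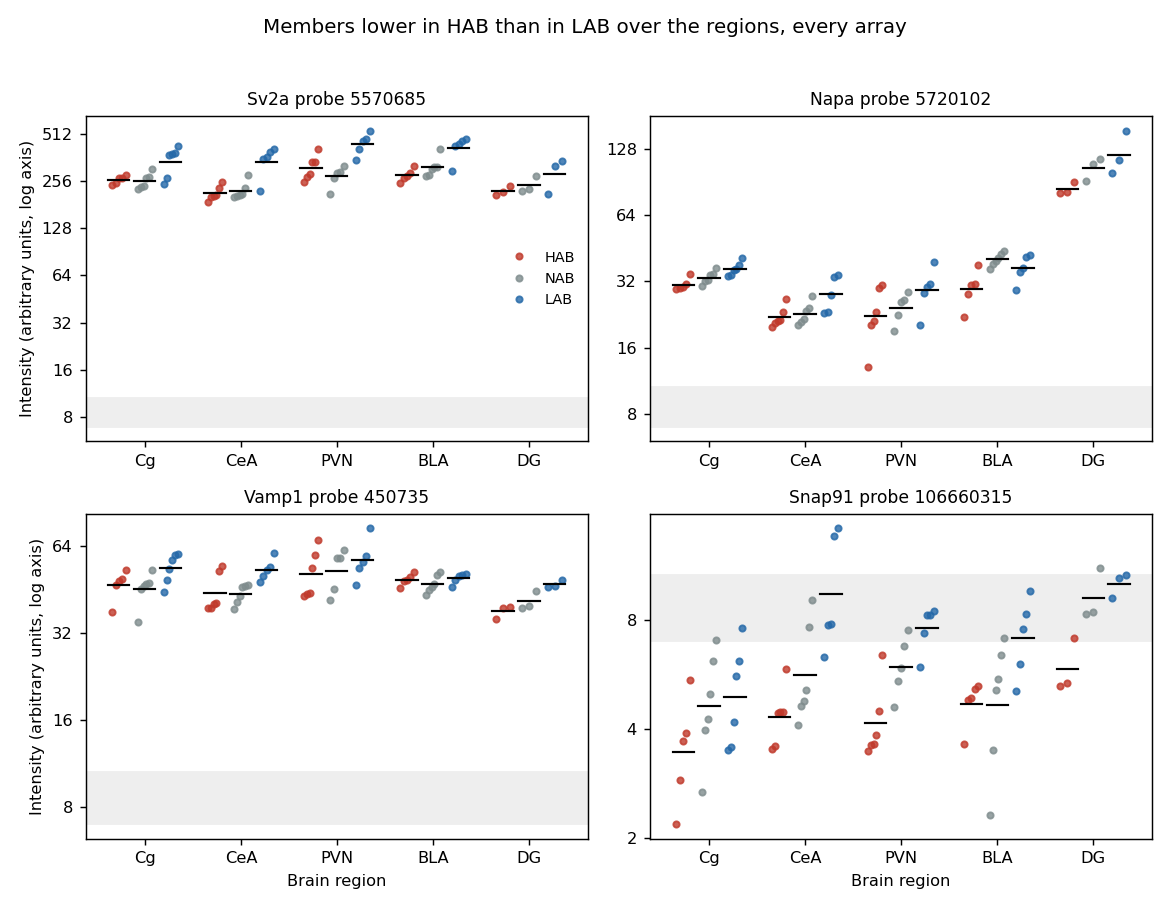
Normalized intensity (log axis) of the Sv2a, Napa, Vamp1 and Snap91 probes with a HAB minus LAB difference below 0 past the threshold, in each array by region and line, with black bars at the mean of the log2 values and a grey band over the array backgrounds. LAB has the highest Sv2a mean in each region, while the Snap91 probe lies mostly within or under the band.

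Between the normal and the low line, 6 of 64 member probes passed (9.38%, all lower in NAB, beside 11.9% of all probes), and 15 had an unadjusted p under 0.05. Besides both Sv2a probes, Vamp1 and Snap91 they were 1 probe each of Nsf, the ATPase that takes SNARE complexes apart, and Stx8, an endosomal syntaxin. For Nsf (probe 4070075) the NAB and LAB means were 353 ± 30.3 and 426 ± 78.8 in the PVN, 455 ± 28.8 and 510 ± 23.0 in the CeA and 715 ± 43.7 and 828 ± 53.2 in the DG, but 516 ± 41.8 and 508 ± 33.6 in the Cg and 723 ± 18.8 and 720 ± 23.8 in the BLA. The averaged difference was small (-0.12, SE 0.04, adjusted p 0.037) and was lost without any of LAB 03, 07, 10 and 16 or NAB 04, 08, 12 and 18 (-0.13 to -0.10), after quantile normalization (-0.05, adjusted p 0.409) and without the filter on dim probes (adjusted p 0.105). For Stx8 (probe 6290471) NAB was lower by -0.18 (SE 0.05, adjusted p 0.0111), with means of 49.7 ± 5.75 against 62.9 ± 9.02 in the PVN and 70.1 ± 12.9 against 86.6 ± 4.73 in the DG. It missed the threshold without NAB 04 (-0.15, adjusted p 0.0654) and after quantile normalization (-0.12, adjusted p 0.0644), and the 4 other tested Stx8 probes lay between -0.10 and 0.02 with adjusted p of 0.106 or more. Between HAB and NAB 2 of 64 probes passed (3.12%, Stx3 and Snap91, beside 6.24% of all probes). The comparisons share samples, so the values of a member in them are not independent.

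Inside single regions the members called were few. HAB against LAB gave 1 of 57 in the Cg (beside 2.47% of all probes), 3 of 58 in the CeA (2.22%), 1 of 58 in the PVN (2.09%), 2 of 60 in the BLA (2.25%) and 1 of 60 in the DG (0.761%). HAB against NAB gave 1 member probe in the Cg (2.13%), CeA (2.06%), PVN (1.71%) and DG (0.659%) and 2 in the BLA (3.05%). In each of these comparisons Stx3 probe 102480441 was among them. NAB against LAB gave 0 in the Cg (2.51%, with 6 at an unadjusted p under 0.05), 1 in the CeA (2.63%) and PVN (1.69%), 2 in the BLA (3.39%) and 0 in the DG (0.627%, with 1 at an unadjusted p under 0.05). At an unadjusted p under 0.05 the member probes numbered between 1 (NAB against LAB in the DG) and 14 of 58 (NAB against LAB in the CeA). The member medians lay between -0.15 (HAB against LAB in the DG, all probes -0.08) and 0.11 (HAB against NAB in the CeA, all probes 0.07) in these 15 comparisons.

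Besides Stx3 and Sv2a, 4 members passed in a single region, named here after their values were seen. In the CeA a probe of Syngr1 (105360458), a synaptogyrin of the vesicle membrane, read 9.73, 10.8, 11.3, 11.8 and 11.9 in LAB and from 8.06 over 8.31 to 8.75 in HAB (-0.40, adjusted p 0.0172). HAB was above background in 1 of 6 arrays there, and the call was lost without LAB 06 or 14 (-0.38 each), when 16 was added before log2 (-0.15, adjusted p 0.0704) and without the filter on dim probes (adjusted p 0.143). In the BLA the Ca2+ sensor Doc2b (probe 2850142) averaged 28.1 ± 7.87 in HAB, 44.1 ± 7.67 in NAB and 29.0 ± 4.37 in LAB (HAB against NAB -0.67, adjusted p 0.0408). This call was lost in 11 of 16 refits that left out an array (-0.68 to -0.55), namely HAB 05, 09 and 17, NAB 04, 08, 12, 13 and 15 and LAB 03, 06 and 07, and without the filter (adjusted p 0.102).

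Also in the BLA, the Rab3 effector Rph3a averaged 134 ± 17.3 in NAB and 95.7 ± 13.9 in LAB (0.49, adjusted p 0.0235), with HAB at 109 ± 13.8. The call was lost without LAB 03, 07 or 10 (0.44 to 0.49), after quantile normalization (0.41, adjusted p 0.0574) and without the filter (adjusted p 0.0923). A dim Snap25 probe (360520) read 10.8, 10.8, 11.1, 11.4 and 12.1 in LAB and 6.51 to 9.57 in NAB (-0.43, adjusted p 0.0272), so those lines did not overlap. NAB and LAB did not overlap in the BLA for 3.9% of all probes. The call was lost without LAB 03, 07, 10 or 14 or NAB 08, 12 or 15 (-0.45 to -0.36), when 16 was added (-0.16, adjusted p 0.0576) and without the filter (adjusted p 0.119). The bright probe of Snap25, the target membrane SNARE of synapses, averaged 1030 ± 59.7 in the BLA over all lines and was not called between lines.

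The members also varied between regions. The median over the 64 probes of the range of the 5 region means was 0.83 on the log2 scale, against 0.72 for all probes tested, and 42.2% of the members exceeded 1 against 30.2% of all. Taking the brightest probe of each gene, the largest ranges belonged to Doc2b (3.55), Sv2b (2.80), Cplx2 (2.44), Napa (2.10), Stx1a (1.73) and Rph3a (1.73), and the smallest to Stx4a (0.22), Snap23 (0.28) and Vamp1 (0.35). Of the 38 genes whose brightest probe was tested, 12 were highest in the BLA, 10 in the DG, 8 in the PVN and 4 each in the Cg and CeA, whereas 14 were lowest in the CeA. The DG count includes Unc13a, which passed the filter through the DG alone. These comparisons set 1 region against the mean of the other 4, and every one of them is also a comparison of hybridization batches.

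**Figure D4:**
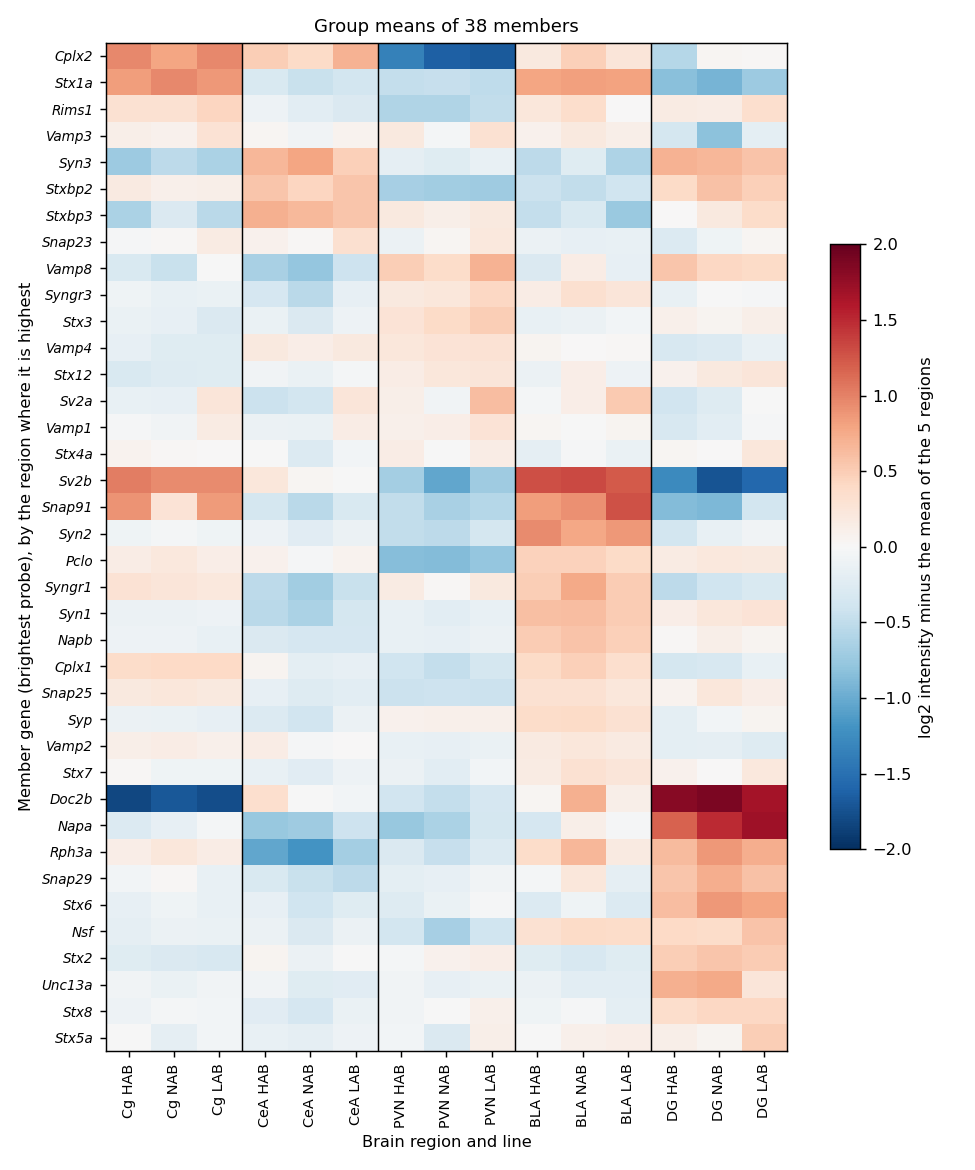
Mean log2 intensity of the brightest probe of 38 members in each region and line, minus the mean of the 5 regions. Members are ordered by the region where they are highest, and the color scale is clipped at 2 in either direction. Doc2b, Napa and Rph3a are highest in the DG, Sv2b and Stx1a are high in the Cg and BLA and low in the DG, and Cplx2 is lowest in the PVN.

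Stx1a, the plasma membrane syntaxin of the presynapse, and Sv2b, a vesicle glycoprotein related to Sv2a, shared a pattern of high levels in the Cg and BLA. Stx1a (probe 3060273) averaged 501 ± 31.0 in the Cg and 469 ± 23.0 in the BLA, against 209 ± 24.4 in the CeA, 193 ± 18.8 in the PVN and 151 ± 13.1 in the DG. The lowest Cg or BLA array (429) exceeded the highest array of the other regions (278). Against the other regions the Cg was higher by 1.11 (SE 0.04, adjusted p 1.85e-37) and the DG lower (-1.04, SE 0.04, adjusted p 1.02e-30). Sv2b (probe 3850717) ran from 447 over a median of 533 to 655 in the BLA, from 336 over 435 to 492 in the Cg, from 177 over 224 to 394 in the CeA, from 76.9 over 131 to 196 in the PVN and from 47.5 over 85.5 to 98.9 in the DG. Neighbors in this order overlapped, while the BLA and Cg lay wholly above the PVN and DG. Sv2b was the member most above the other regions in the BLA (1.60, SE 0.07, adjusted p 8.58e-29) and the Cg (1.22, adjusted p 1.73e-23) and the one furthest below them in the DG (-1.91, SE 0.09, adjusted p 1.92e-28). It was also lower in the PVN (-1.01, adjusted p 7.83e-20).

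The stretches before annotated starts of these genes are shown because both rose and fell together over the regions (RefSeq, GRCm38.p6, 250 bases, Sv2b at 1 of its 4 annotated starts). Capitals mark GGGCGG in Stx1a (plus strand) and TATAAA in Sv2b (minus strand), read on either strand. They shared neither motif, and neither held TGACGTCA.
Stx1a, chr5:135023232-135023481: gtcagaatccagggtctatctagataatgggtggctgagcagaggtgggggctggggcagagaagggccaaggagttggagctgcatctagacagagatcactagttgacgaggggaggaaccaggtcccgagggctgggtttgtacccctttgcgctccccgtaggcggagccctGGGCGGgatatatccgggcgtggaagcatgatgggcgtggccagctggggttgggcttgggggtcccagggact
Sv2b, chr7:75309263-75309512: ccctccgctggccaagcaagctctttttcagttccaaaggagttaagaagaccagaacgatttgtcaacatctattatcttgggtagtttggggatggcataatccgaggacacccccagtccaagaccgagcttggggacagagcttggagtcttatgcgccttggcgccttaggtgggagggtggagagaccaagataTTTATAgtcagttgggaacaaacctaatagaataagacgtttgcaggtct

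Doc2b and Napa were highest in the DG, where Stx1a and Sv2b were lowest. Doc2b, a Ca2+ sensor of spontaneous release, averaged 92.4 ± 15.4 in the DG, 34.4 ± 10.1 in the BLA, 29.3 ± 8.23 in the CeA, 20.3 ± 3.07 in the PVN and 7.90 ± 1.30 in the Cg, where 5 of 17 arrays were above background. The DG arrays (72.6 to 114) lay above all others, and the Cg arrays (5.13 to 9.69) below all others. The difference was 2.24 in the DG (SE 0.11, adjusted p 1.45e-28) and -2.21 in the Cg (SE 0.08, adjusted p 1.91e-33), and the second Doc2b probe was above background in 0 of 17 Cg arrays. Napa averaged 104 ± 22.9 in the DG, 36.1 ± 6.25 in the BLA, 33.8 ± 3.18 in the Cg, 25.6 ± 6.29 in the PVN and 24.2 ± 4.34 in the CeA. Its DG arrays started at 81.2 and those elsewhere ended at 44.1 (1.82, SE 0.08, adjusted p 1.51e-29). In the CeA it was lower (-0.79, adjusted p 7.79e-17). The second Napa probe ran from 4.59 to 69.0 in the DG with 6 of 9 arrays above background. The stretch before an annotated Napa start, which also lies inside the span of the gene, held GGGCGG and no TATAAA (plus strand, capitals mark the match), and a TGACGTCA ran across its end, into the transcript.
Napa, chr7:16098330-16098579: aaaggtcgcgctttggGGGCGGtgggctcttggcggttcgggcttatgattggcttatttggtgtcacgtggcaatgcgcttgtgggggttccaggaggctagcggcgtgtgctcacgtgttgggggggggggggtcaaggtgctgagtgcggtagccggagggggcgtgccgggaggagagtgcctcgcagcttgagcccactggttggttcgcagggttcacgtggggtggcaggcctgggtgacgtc

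Stx6, a syntaxin of the trans-Golgi network, was the third of the members furthest above the other regions in the DG, at 29.4 ± 6.49 against 14.4 ± 3.10 to 15.6 ± 2.12 elsewhere (0.95, SE 0.09, adjusted p 5.80e-14). Rph3a was lowest in the CeA, at 43.6 ± 10.9 (-1.21, SE 0.06, adjusted p 1.30e-26), and averaged 67.4 ± 11.0 in the PVN, 94.7 ± 7.98 in the Cg, 114 ± 22.1 in the BLA and 141 ± 13.4 in the DG. The Cg and BLA arrays of Rph3a overlapped, as did those of the BLA and DG.

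Complexins and active zone proteins were low in the PVN. Cplx2 averaged 77.3 ± 12.2 in Cg arrays, 61.7 ± 22.0 in the CeA, 52.6 ± 12.4 in the BLA, 47.1 ± 29.9 in the DG and 15.9 ± 7.82 in the PVN, where the arrays ran from 3.06 to 36.1 (-1.95, SE 0.19, adjusted p 1.33e-14). It was higher in the Cg (1.12, SE 0.18, adjusted p 2.20e-07) and the CeA (0.65, SE 0.18, adjusted p 1.67e-03). The DG arrays ran from 8.24 to 95.9 and so spanned most of the levels of the other regions. Cplx1 averaged 376 ± 98.8 in the PVN, 402 ± 37.1 in the DG, 456 ± 57.9 in the CeA, 636 ± 44.6 in the Cg and 643 ± 58.4 in the BLA, and its DG arrays (355 to 480) lay within the range of the PVN arrays (263 to 543). Probe 3140131 of Pclo, a giant scaffold of the active zone, averaged 127 ± 16.9 in the PVN and 233 ± 21.8 to 305 ± 31.2 elsewhere (-1.04, SE 0.05, adjusted p 1.08e-30), and no PVN array (99.6 to 157) reached the lowest array of the other regions (198). The other Pclo probe, 580059, did not set the PVN apart, with 21.9 ± 2.53 there, 21.4 ± 4.52 in the DG and 23.1 ± 2.45 in the CeA. Rims1 followed, with 22.6 ± 6.42 in the PVN and 28.8 ± 6.29 to 41.7 ± 7.17 elsewhere. Of the 6 neuronal markers above background, 3 were higher and 3 lower in the PVN. Their summed intensity ran from 959 over a median of 1220 to 1480 there and from 1110 over 1260 to 1410 in the CeA, while Rbfox3, a nuclear marker of neurons, had its lowest mean in the PVN (144 ± 21.3, against 287 ± 43.7 to 424 ± 38.2). Whether a different share of neurons moved these members was not tested.

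The members highest in the PVN stood above the other regions by less. Vamp8, an endosomal VAMP that also serves secretion in many cell types, averaged 25.3 ± 4.03 there, 24.0 ± 2.55 in the DG and 11.6 ± 2.33 in the CeA (0.64 in the PVN, SE 0.07, adjusted p 1.73e-13, and -0.76 in the CeA, SE 0.06, adjusted p 2.64e-16). Stx3 probe 2640215 averaged between 17.3 and 20.1 in the lines of the PVN (0.48, SE 0.05, adjusted p 1.54e-12). Syngr3, a synaptogyrin, averaged 135 ± 28.6 in the PVN and 131 ± 18.1 in the BLA, which overlapped (0.35, SE 0.07, adjusted p 3.22e-06).

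In the CeA, Syn3, a synapsin, and Stxbp3, or Munc18c, stood furthest above the other regions among the 7 member probes called higher, followed by Cplx2. Syn3 (probe 101450041) averaged 36.0 ± 5.98 in the CeA and 35.5 ± 3.84 in the DG, against 20.0 ± 2.51 in the PVN, 16.8 ± 2.77 in the BLA and 15.0 ± 2.81 in the Cg (0.80 in the CeA, SE 0.06, adjusted p 6.00e-18, and -0.79 in the Cg, SE 0.06, adjusted p 1.18e-17, with -0.58 in the BLA, adjusted p 3.98e-12). The 2 dimmer Syn3 probes did not show the high DG level, with 7.35 ± 0.695 and 6.80 ± 2.13 there. They did not set the CeA apart either, with 8.94 ± 1.15 and 9.44 ± 1.87 there and 9.71 ± 1.29 and 10.2 ± 3.16 in the PVN. Stxbp3 averaged 25.3 ± 4.51 in the CeA, 19.4 ± 6.83 in the DG, 18.2 ± 3.20 in the PVN, 11.9 ± 3.33 in the Cg and 11.5 ± 2.03 in the BLA (0.80 in the CeA, SE 0.10, adjusted p 4.28e-10, -0.61 in the Cg, adjusted p 2.79e-07, and -0.64 in the BLA, adjusted p 2.55e-07). Its relative Stxbp2, or Munc18-2, was low in the BLA as well (48.5 ± 5.46, -0.55, adjusted p 2.96e-10) and high in the CeA (94.2 ± 13.0). Syn3 probe 101450041 and the Stxbp3 probe were thus lowest in the Cg and BLA, where Stx1a and Sv2b were highest.

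In the BLA, Snap91 and Syn2 followed Sv2b among the highest members. Syn2, a synapsin, averaged 504 ± 59.8 in the BLA and 206 ± 47.8 to 266 ± 40.0 elsewhere (1.08, SE 0.08, adjusted p 1.36e-17). The lowest BLA array (423) exceeded the highest array of the other regions (369). Snap91 (probe 5690520) averaged 22.3 ± 7.53 in the BLA, 17.4 ± 5.13 in the Cg and 6.89 ± 3.23 in the DG, where 2 of 9 arrays were above background (1.26 in the BLA, SE 0.13, adjusted p 3.89e-13, and -0.89 in the DG, SE 0.16, adjusted p 1.62e-06). The next Snap91 probe, 3170056, contradicted it in the DG, where it had its highest mean, 22.1 ± 8.42.

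**Figure D5:**
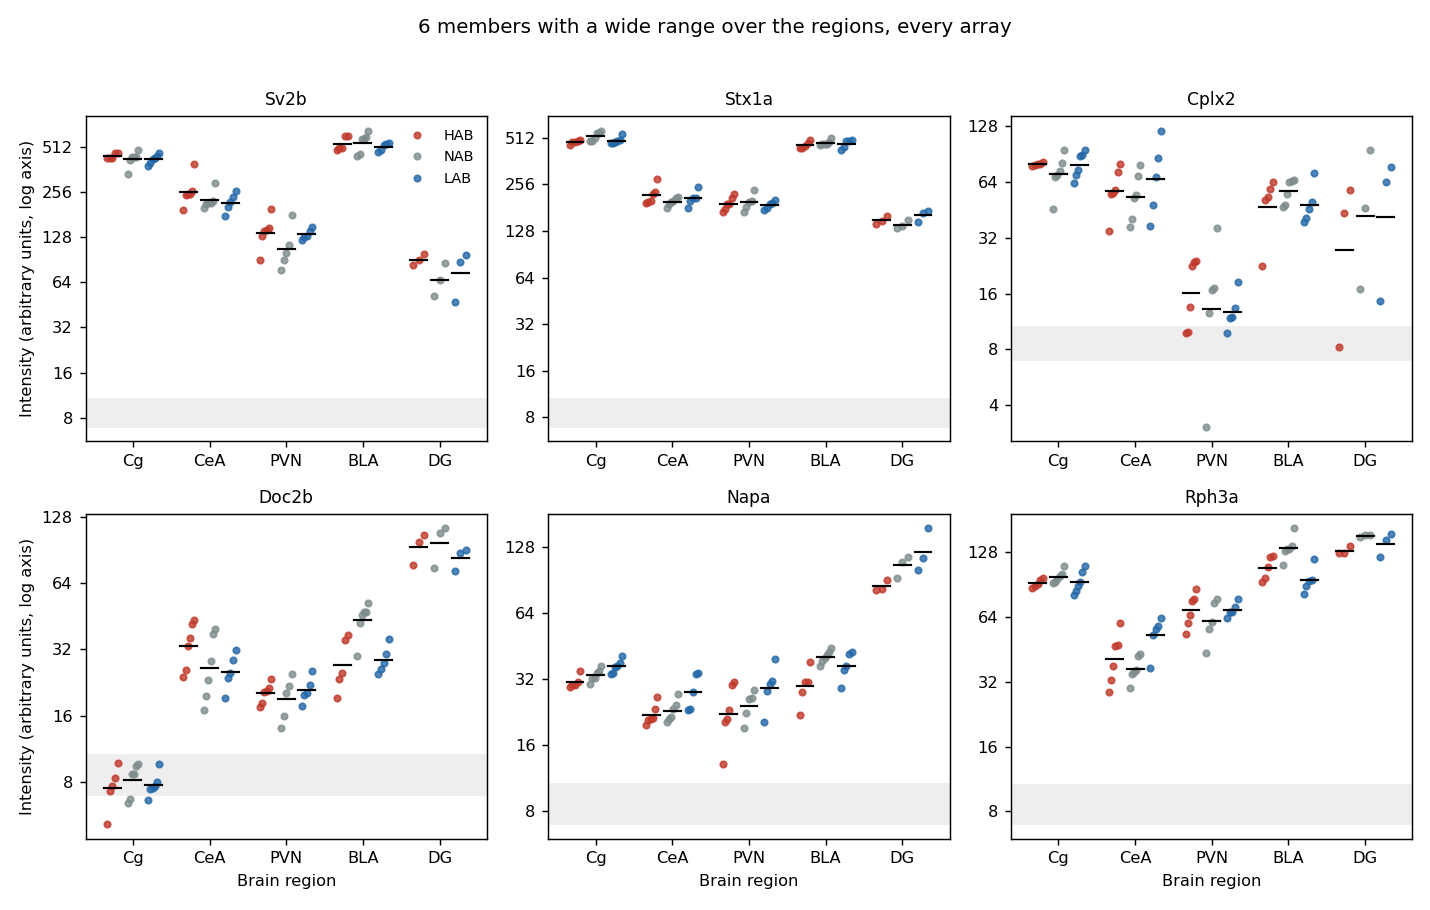
Normalized intensity (log axis) in each array, by region and line, of the 6 members with the largest range over regions, Doc2b, Sv2b, Cplx2, Napa, Stx1a and Rph3a, with black bars at the mean of the log2 values and a grey band over the array backgrounds. The regions separate for Doc2b in the DG (72.6 to 114) and for Stx1a in the Cg and BLA. The HAB arrays of Napa lie below those of the other lines in the DG.

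Counted by role, the members differed between regions as given below, beside these shares of all probes tested. Of all probes 29.8% were higher in the BLA, 39.7% lower in the CeA and 29.7% lower in the PVN. In the DG 41.1% were higher and 29.7% lower. All 8 vesicle membrane probes (Sv2a, Sv2b, Syp, Syngr1 and Syngr3) were higher in the BLA than in the other regions, while 7 of 8 were lower in the CeA and 5 of 8 in the DG. Syp, the most used vesicle marker, averaged 944 ± 67.6 in the BLA and 619 ± 89.1 in the CeA. All 7 probes for SNARE disassembly (Nsf, Napa and Napb) were lower in the PVN, 6 were lower in the CeA and 6 higher in the DG. Of 8 priming and active zone probes, 7 were lower in the PVN and 7 higher in the BLA. Of 10 probes for endosomal and Golgi syntaxins, 8 were higher in the DG and 9 lower in the CeA.

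The VAMPs were mixed, with 5 of 8 probes higher and 2 lower in the PVN (32.0% and 29.7% of all probes). In the DG 4 were higher and 4 lower (41.1% and 29.7% of all probes). Among the higher ones was Vamp7, whose probe passed the filter through the DG alone. Vamp2, the main vesicle SNARE of the forebrain, ranged only from 261 ± 19.0 in the DG to 347 ± 27.8 in the BLA. The SNAP-25 family and the synapsins were mixed as well, and both complexins were higher in the Cg (22.5% of all probes) and lower in the PVN (29.7%). After quantile normalization the counts for the vesicle membrane in the BLA, SNARE disassembly and active zone in the PVN and active zone in the BLA were the same. For endosomal and Golgi syntaxins 5 instead of 9 probes were lower in the CeA and 6 instead of 8 higher in the DG. For the vesicle membrane 7 instead of 5 were lower in the DG, and in the CeA 5 instead of 7 were lower and 1 was higher. For SNARE disassembly 5 instead of 6 were lower in the CeA and 5 instead of 6 higher in the DG.

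Over all members the Cg gave 20 probes higher (31.2%) and 24 lower (37.5%), beside 22.5% and 43.3% of all probes. In the CeA 7 were higher (10.9%) and 40 lower (62.5%), beside 19.3% and 39.7%, and in the PVN 15 were higher (23.4%) and 33 lower (51.6%), beside 32.0% and 29.7%. In the BLA 32 were higher (50.0%) and 12 lower (18.8%), beside 29.8% and 26.5%, and in the DG 32 were higher (50.0%) and 18 lower (28.1%), beside 41.1% and 29.7%. The tested probes of Vamp7 and Unc13a and Snap91 probe 106660315 passed the filter through the DG alone. A high DG level of these probes was thus favored by the filter and is no separate result. The member medians were -0.23 in the CeA, -0.17 in the PVN and 0.18 in the BLA, against -0.09, -0.01 and 0.01 for all probes. Cell type markers moved with these regions. In the BLA 5 of 6 neuronal, 3 of 3 glutamatergic and 5 of 5 microglial markers were higher. In the CeA 5 of 5 oligodendrocyte and 3 of 3 GABAergic markers were higher and 2 of 6 neuronal and 2 of 3 glutamatergic markers lower. In the PVN 5 of 6 astrocyte, 3 of 4 endothelial and 3 of 3 erythroid markers were higher. The summed neuronal list ran from 1440 to 1660 in the BLA, 1110 to 1410 in the CeA and 959 to 1480 in the PVN, and the part of these markers in the member counts was not tested. Quantile normalization gave the Cg 29 higher and 16 lower members, the CeA 14 and 30 and the DG 27 and 23. With it the all-probe median moved up by 0.08 for the Cg and CeA and moved by -0.10 for the DG. It turned the sign of 6 called probes in the Cg (Syp, Nsf, Syngr3, Syn1, Napb and a probe of Stx8), 3 in the CeA (Stx4a, Stx12 and a probe of Vamp4) and that of Syp in the PVN, none of which is among the members described above as highest or lowest in that region.

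Different probes of a gene did not always tell the same story. For 18 genes with at least 2 tested probes, 72 pairs of calls against the other regions had the same sign and 26 had opposite signs, and 8 genes had no opposite pair. The disagreements were most frequent for Stx8 (7), Snap91 (4), Syn3 (4) and Vamp4 (3), and the Snap25 probes disagreed in both regions where both were called. Napb (11 pairs), Doc2b (4), Rims1 (4), Vamp8 (3) and Sv2a (3) had the same sign throughout. Among the 64 tested probes 11 were built on cDNA clones.

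Other genes of release and SNARE trafficking, from a list of 55 genes with 74 tested probes, differed between lines as follows. For HAB against LAB averaged over regions 3 were higher and 2 lower (6.76%), for HAB against NAB 6 were higher and 2 lower (10.8%), and for NAB against LAB 2 were higher and 11 lower (17.6%), beside the 7.17%, 6.24% and 11.9% of all probes given above. Vti1b, a SNARE of late endosomes and a partner of Stx7 and Stx8, was low in LAB, with 387 ± 25.8 in HAB, 366 ± 33.2 in NAB and 228 ± 37.8 in LAB in the Cg, and it was called for HAB against LAB in the Cg, CeA, PVN and BLA (averaged difference 0.68, SE 0.06, adjusted p 3.91e-15). Dnajc5, the cysteine string protein that chaperones Snap25, was high in HAB, with 349 ± 31.0, 242 ± 21.6 and 248 ± 9.06 in the BLA (probe 103800301, averaged difference 0.39, SE 0.04, adjusted p 1.77e-10). The second Dnajc5 probe, 2630193, read 350 ± 52.6, 333 ± 33.6 and 353 ± 22.4 in the BLA and was called for HAB against LAB in the Cg (0.48, adjusted p 0.00953) but not averaged over regions. Sec22c was low in LAB, at 25.2 ± 6.75, 25.7 ± 6.25 and 12.2 ± 1.69 in the BLA (0.59, adjusted p 3.94e-07). Scamp5, a secretory carrier membrane protein, was low in NAB, for example 5.33 ± 1.03 in the CeA with no array above background, against 9.52 ± 1.51 in HAB and 8.46 ± 1.65 in LAB (HAB against NAB averaged 0.59, adjusted p 1.45e-05).

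On the low side of HAB against LAB, Rims3, a short relative of Rims1, averaged 14.2 ± 0.89 in HAB and 21.2 ± 2.28 in LAB in the PVN (-0.57, adjusted p 0.00418), and Rimbp2, which links Rims to Ca2+ channels, gave an averaged -0.46 (adjusted p 0.00388). In the CeA, PVN and DG no HAB array of Rimbp2 was above background, and 1, 0 and 1 LAB arrays were. Its averaged difference thus rests partly on values under background. In the BLA it averaged 11.8 ± 3.0 in HAB and 17.2 ± 3.52 in LAB. Besides Dnajc5, Scamp5 and Rimbp2, those called in HAB against NAB were Cadps2, Doc2a, Rabac1 and Use1, with differences from -0.60 to 0.36. In NAB against LAB, Sec22c (0.72, adjusted p 1.29e-09) and Vti1b (0.54, adjusted p 1.80e-11) were higher in NAB. The others called, apart from Scamp5 and Dnajc5, were Gosr2, Ppfia1, Rabac1, Snap47, Use1, Vti1a and Ykt6, all lower in NAB, from -0.44 to -0.18.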

How the data were processed

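Total RNA of 1 sample per mouse and region was amplified by a round of in vitro transcription and hybridized to Illumina MouseWG-6 v1.1 bead arrays. The deposited values were intensities on a linear scale, which the authors read with BeadStudio and normalized by QSpline. The methods state that this was applied to all samples and do not say whether each region was normalized on its own. A treatment of background is not given in the sources used here. Of 78 array columns 75 held values, and 3 DG columns were empty. A further 156 per-sample columns of a table before normalization, whose names match no label, were not used.

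Log2 was taken of the deposited intensity. The platform annotation named 1 gene for 32794 of 46643 probes, several for 55 and none for 13794, and 32722 symbols were updated through their Entrez number. A probe was tested in a region when it exceeded the array's background, the 95th percentile of 1305 olfactory and pheromone receptor probes, in at least 5 arrays (3 in the DG). Lines were compared with limma 3.58.1 (R 4.3.3) inside each region, and in a joint model over the 15 groups, with a random block for the mouse, which gave the averaged, interaction and region comparisons. A mouse number was taken to mark the same animal in each region, as the labels name the mouse, although they hold 21 numbers (6 HAB, 7 NAB and 8 LAB) and the methods describe 6 animals per line. Deviations of its arrays in different regions correlated at 0.0463 (114 pairs, 628 pairs of other mice -0.0082), and the block's correlation was 0.0142. P-values were adjusted by Benjamini-Hochberg over all probes tested, with a threshold of 0.05, and "called" means past it. For a probe at background on every array of a line, a fold was given as "at least", with the background of each array standing in for the dim line.

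Values in full went to members called in a comparison averaged over regions or in at least 2 regions, to the 3 highest and 3 lowest members of each region and to interaction calls. The members and gene lists were chosen with earlier results of these data known. The code was tested on simulated data. Alternatives were quantile normalization, median centering, 16 added before log2, no filter, array weights, no block, and leaving out each array or mouse. The number of arrays limits the precision, and no probe sequence was used here.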

Additional observations from a re-analysis of the deposited data

Results flagged for a closer look

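In 276 groups of 4 to 6 arrays, from 23 member probes in 12 groups each, 17 arrays stood apart from the rest of their group by Dixon's test, where chance gives about 1 group in 20. Among the probes that differed between lines, Sv2a (5570685) was 294 in the BLA of LAB mouse 06 (others 427 to 473) and 406 in the BLA of NAB mouse 15 (others 275 to 315). Snap91 (106660315) was 3.62 in the BLA of HAB mouse 05 (others 4.80 to 5.26) and 6.39 in the PVN of the same mouse (others 3.47 to 4.48), all at background. Stx8 (6290471) was 69.4 in the Cg of LAB mouse 07 (others 54.2 to 57.3).

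In the CeA, Syn3 was 43.7 in HAB mouse 01 (others 32.5 to 35.8), Stxbp3 16.2 in HAB mouse 17 (others 26.9 to 30.5), Vamp8 15.6 in LAB mouse 03 (others 11.9 to 12.9) and Stx3 (2640215) 16.3 in HAB mouse 11 (others 11.5 to 13.0). Sv2b was 394 in HAB mouse 20 (others 194 to 261) and 296 in NAB mouse 08 (others 201 to 224), also in the CeA. In the BLA, Stxbp2 was 66.4 in LAB mouse 06 (others 42.5 to 47.6), Stx3 (2640215) 15.3 in LAB mouse 07 (others 13.0 to 13.6) and Stx6 10.1 in NAB mouse 02 (others 16.4 to 18.3). Stx1a was 539 in the Cg of LAB mouse 14 (others 471 to 493). Syn2 was 344 in the Cg of NAB mouse 13 (others 228 to 268) and 289 in the PVN of LAB mouse 07 (others 190 to 215).

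The measured HAB minus LAB difference of Stx3 (102480441) varied between regions in the interaction test, with a moderated F of 9.27. LAB lay at background throughout, so the test rests on the HAB level and on values under background. Region and batch cannot be told apart in it. Stx3 was the only member for which that test passed the threshold, and without HAB mouse 01 it gave 7.03 (adjusted p 0.0535).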

How the results depend on the processing

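The 30 region calls named in the report stayed called in the same direction under each alternative and in all 630 refits that left out a mouse. Of the line calls averaged over regions, 250 of 273 such refits kept the call and 23 lost it, and of those inside a region 262 of 302 kept it and 40 lost it. No named value changed direction. Without the mouse block the members called averaged over regions were 5 for HAB against LAB, 3 for HAB against NAB and 7 for NAB against LAB, and no named call changed.

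The number of members called changed by over 1.5 times as follows, and the cause was not tested. Quantile normalization gave 2 instead of 1 for HAB against LAB in the Cg and in the PVN, and 0 instead of 1 for NAB against LAB in the CeA, where median centering and 16 added before log2 each gave 2. Without the filter, which tests more probes, NAB against LAB gave 0 in the CeA, PVN and BLA, HAB against LAB gave 2 for the PVN with 1 for the BLA, and HAB against NAB gave 1 in the BLA. Array weights gave 2 for HAB against NAB in the Cg and in the DG, 2 for NAB against LAB in the Cg, 2 for HAB against LAB in the PVN, 5 for HAB against NAB in the BLA and 9 for NAB against LAB in the BLA.

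With each array or mouse left out in turn, HAB against LAB ranged from 1 to 2 members in the Cg, PVN and BLA. HAB against NAB ranged from 1 to 2 in the Cg and PVN, from 1 to 4 in the BLA (4 without NAB 02) and from 1 to 3 averaged over regions (1 without HAB 17). NAB against LAB ranged from 0 to 2 in the Cg, 0 to 3 in the CeA, 0 to 1 for the PVN, 0 to 6 for the BLA (6 without NAB 02, 0 without LAB 03 or 10) and 3 to 10 averaged over regions (10 without NAB 02, 3 without LAB 03 or NAB 04). The interaction ranged from 0 to 1 (0 without HAB 01).

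Over all probes, array weights changed the calls from 385 to 672 (HAB against LAB, PVN), 312 to 567 (NAB against LAB, PVN), 562 to 1280 (HAB against NAB, BLA), 624 to 3168 (NAB against LAB, BLA), 123 to 405 (HAB against NAB, DG), 117 to 603 (NAB against LAB, DG) and 57 to 155 (interaction). Adding 16 gave 124 interaction calls. Testing all probes left 394 calls for NAB against LAB in the BLA and 231 in the CeA. Leaving out an array or mouse gave 54 to 165 for HAB against LAB in the DG (142 with all), 70 to 106 for HAB against NAB in the DG, 74 to 96 for NAB against LAB in the DG, 397 to 996 for HAB against NAB in the BLA, 371 to 1520 for NAB against LAB in the BLA, 289 to 522 for NAB against LAB in the CeA (472 with all) and 37 to 64 for the interaction.

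Probes near background (Snap91 106660315, Syngr1 105360458, Snap25 360520, and Rimbp2 104070008 in the CeA, PVN and DG) carry little signal, and the 9 DG arrays give the fewest calls.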
